A study of Mus musculus with 12 samples.

Results

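Aminoacyl-tRNA synthetases are the enzymes that attach each amino acid to its tRNA, and the members described here are 34 genes that encode them in the mouse: 18 for the cytosol, 14 for the mitochondrion, and Gars and Kars, whose products serve both. They were chosen as a gene family, with earlier results of these data known, from the 19406 genes that have a probe on the array. Of the 34, 32 had at least 1 probe of their own (63 probes in all), and 31 had a probe bright enough to test (50 probes). Dars, the aspartate enzyme, had no annotated probe, the probe of Lars, the leucine enzyme, is annotated to several genes and was left unnamed, and the probe of Yars2, the mitochondrial tyrosine enzyme, was detected on no array. The 31 comprise 16 cytosolic genes, Gars and Kars, and 13 mitochondrial genes.

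The samples were RNA of E16.5 C57BL/6 embryos in 6 groups of genotype and tissue: S1Pcko cartilage (2 arrays) and WT cartilage (2), S1Pcko long bone (3) and WT long bone (3), S1Pcko calvarium (1) and WT calvarium (1). S1Pcko embryos were S1P f/f;Col2-Cre, so that site-1 protease (S1P) was removed where the Col2 promoter drives Cre, chiefly in chondrocytes. WT littermates had no Cre (S1P f/f or S1P f/+) or carried Col2-Cre with a single floxed allele (S1P f/+), so some controls could carry 1 deleted allele. Cartilage was the chondroepiphysis of most appendicular elements, long bone was the entire element with its epiphyses, and calvarium is the skull vault, which forms without a cartilage template. Arrays are named by the number in their title, and 1927, 1928, 1929 and 1930 came from a second amplification of RNA. The 2 cartilage arrays of a genotype probably came from 1 embryo. In long bone, 1929 and 1930 are second amplifications, so fewer than 3 samples may stand behind each genotype. In both tissues the p values therefore measure the spread between arrays, part of which is technical. If each genotype had 1 embryo in cartilage, none of the spread there is between embryos. The p values in cartilage then do not reach beyond those embryos.

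A charged tRNA delivers its amino acid to the ribosome. The cytosol and the mitochondrion keep largely separate sets of synthetases, all encoded in the nucleus. When the endoplasmic reticulum is under stress or an amino acid runs short, phosphorylation of eIF2alpha favours translation of ATF4, a transcription factor that binds C/EBP-ATF composite elements in genes of amino acid transport, amino acid synthesis and tRNA charging. Several cytosolic synthetases are known ATF4 targets. Chondrocytes secrete large amounts of collagen and proteoglycan, which places a high demand on translation.

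Each array detected 44.1% to 47.1% of its 46643 probes, taking a detection p under 0.05. The cartilage marker genes, such as Col2a1 and Acan, had a mean log2 intensity of 12.62 to 13.15 on the 4 cartilage arrays, 11.81 to 12.85 on the 6 long bone arrays, and 10.51 and 10.67 in S1Pcko and WT calvarium. Skeletal muscle markers were bright on the cartilage arrays too (12.30 to 12.60), although the tissue was labelled cartilage. Array 1922 (S1Pcko long bone) stood apart from 1924 and 1930, its 7 muscle markers averaging 13.27, against 11.49 and 11.52. Mbtps1, which encodes S1P, did not pass the test on either tested probe (log2 fold changes -0.22 and 0.06 in cartilage, adjusted p = 0.653 and 0.892). The position of its probes relative to the deleted part is not given in the sources used here, so they check no genotype.

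Promoters of the members, taken from RefSeq (GRCm38.p6) as 250 bases before and 50 bases after the start of the gene, were searched for the C/EBP-ATF composite element TGATGNAA on both strands, since this is the element through which ATF4 is known to act. The search covered 26 promoters of 25 members, and Cars, Hars, Lars, Nars, Rars, Vars, Wars and Pars2 had no entry. The letters were found in 4 of the 26 promoters (15.4%), beside 1303 of 32850 promoters searched over all genes (3.97%). They were in 3 of 10 cytosolic promoters, in 1 of 2 of the genes that serve both compartments and in 0 of 14 mitochondrial promoters. The sites are given in 30 bases each, 5' to 3' on the strand of the gene, with the matched letters in capitals, so that the matches can be compared between members.
Gars: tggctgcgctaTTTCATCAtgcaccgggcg
Iars: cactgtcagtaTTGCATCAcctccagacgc
Tars: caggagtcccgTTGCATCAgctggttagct
Yars: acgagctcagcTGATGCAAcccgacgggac
The Gars site began 30 and the Tars site 15 bases before the start. Those of Iars and Yars began at bases 8 and 4, counting the start as base 1. All were on the strand opposite to the gene except that of Yars. The regions shown are chr6:55037960-55037989 for Gars (plus strand), chr13:49682126-49682155 for Iars (plus strand), chr15:11399655-11399684 for Tars (minus strand) and chr4:129189895-129189924 for Yars (plus strand). The 250 bases before the start of Gars, which serves both compartments, show its site in its surroundings (chr6:55037751-55038000).
Gars: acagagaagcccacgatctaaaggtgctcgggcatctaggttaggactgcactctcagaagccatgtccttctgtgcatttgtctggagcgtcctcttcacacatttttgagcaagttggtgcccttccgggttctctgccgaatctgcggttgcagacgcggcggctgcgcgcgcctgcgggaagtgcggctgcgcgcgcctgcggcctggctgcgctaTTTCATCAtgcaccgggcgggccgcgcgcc
No match says only that the letters are not in this window. Sars, which rose in both tissues, had an entry and no match. Of the members with a match, Iars rose in cartilage alone. Gars had an adjusted p under 0.05 (limma) in both tissues, but stayed under 2-fold. Tars and Yars did not pass the test in either tissue. A match is a description of the sequence and shows no binding. Among 12 promoters of 11 genes of tRNA sensing and the stress response, 4 held the letters (Asns, Atf3, Chac1 and Trib3). The element is known from Asns, Ddit3 and Trib3 of this list, so the share of this list is no reference for the members.

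In cartilage, 5 of the 31 tested synthetases rose and 0 fell in S1Pcko, where rose and fell mean an adjusted p under 0.05 (limma, Benjamini-Hochberg over all tested probes) and a change of at least 2-fold. Of the 12542 genes tested, 1.17% rose and 1.53% fell. The 5 were the cytosolic enzymes Aars, Cars, Iars and Sars, which charge alanine, cysteine, isoleucine and serine, and the mitochondrial tryptophan enzyme Wars2. Without the fold threshold 8 were higher, also Gars, Mars and Wars, and 0 lower, against 2.38% and 2.92% of all genes. Sars and Aars are named by the study from these arrays, so their rise is not independent evidence. With the 2 amplifications of a genotype averaged, or in the first amplification round alone, 0 of the 5 kept their call in cartilage, although the changes stayed at 1.09 or more (log2).

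Markers of other cells differed between the genotypes in cartilage too, and in bulk tissue fewer cells of a type and less RNA per cell cannot be told apart. Of 4 tested osteoblast markers 1 rose, Ibsp, a protein of mineralised matrix (log2 2.08, adjusted p = 0.000515), and Bglap, which encodes osteocalcin, read 7.74 and 7.49 in S1Pcko and 5.48 and 5.38 in WT cartilage (adjusted p = 0.0688). Of 3 epidermis markers 1 fell, Lor (log2 -3.42, adjusted p = 1.36e-05). None of the 5 osteoclast, 3 erythroid, 7 granulocyte and macrophage and 8 cartilage markers was called, with medians of 0.66, -1.18, -0.47 and -0.34. The erythroid markers summed to 17423 and 18076 in S1Pcko and 25046 and 23926 in WT cartilage, and the osteoclast markers to 4439 and 4007 in S1Pcko and 2540 and 2277 in WT cartilage. The part of these cells in the values of the synthetases was not tested.

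Cars, the cysteine enzyme, had the largest rise, and its log2 intensity was 9.78 and 9.94 in S1Pcko cartilage, against 8.12 and 8.32 in WT cartilage. All S1Pcko values lay above all WT values, a change of 3.11-fold (log2 1.64, standard error 0.18, adjusted p = 0.000467). Aars, the alanine enzyme, stood at 12.15 on both S1Pcko arrays and at 10.96 and 11.01 on the WT arrays. It rose 2.24-fold (log2 1.17, standard error 0.15, adjusted p = 0.00138). Sars, the serine enzyme, had 10.55 and 10.50 in S1Pcko cartilage and 9.33 and 9.19 in WT cartilage, and rose 2.40-fold (log2 1.26, standard error 0.19, adjusted p = 0.00361). Its other tested probe rose by a log2 change of 1.54, so both probes of Sars moved together. Iars, the isoleucine enzyme, had 8.16 and 8.36 in S1Pcko cartilage and 7.02 and 7.33 in WT cartilage (log2 1.09, standard error 0.26, adjusted p = 0.0399). The groups of Iars did not overlap, but its call was the least firm, being lost under 12 of 21 alternative settings. The other tested probe of Iars changed by 0.80 and was not called. Of the 3 tested probes of Cars, 1 was called.

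Gars, which charges glycine in both compartments, stood at 13.79 and 13.58 in S1Pcko cartilage, against 12.78 and 12.96 in WT cartilage, and was 1.76-fold higher (adjusted p = 0.0134), short of 2-fold. Kars, the lysine enzyme of both compartments, had 10.92 and 10.82 in S1Pcko and 10.36 and 10.50 in WT cartilage, with a log2 change of 0.44 (adjusted p = 0.126). The methionine enzyme Mars (log2 0.88, adjusted p = 0.00574) and the tryptophan enzyme Wars (log2 0.91, adjusted p = 0.0189) passed on p but not on size. Wars read 10.16 and 10.23 in S1Pcko cartilage and 9.40 and 9.18 in WT cartilage, and its 2 tested probes differed by 0.09 on the log2 scale. Nars, the asparagine enzyme, had 10.99 and 11.11 in S1Pcko and 10.29 and 10.42 in WT cartilage (log2 0.69, adjusted p = 0.0572).

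The cytosolic genes were not uniform. Of the 16 tested, 14 had a positive change, 12 had every S1Pcko array above every WT array, and the changes ran from -0.16 for Rars, the arginine enzyme, to 1.64 for Cars. Of all genes 51.5% had a positive change. Of the 13 mitochondrial members tested 10 had a positive change, and 6 were above WT without overlap (46.2%). Over all members 20 of 31 were above WT without overlap (64.5%), beside 27.9% of all genes. Qars, Farsa, Farsb, Hars, Eprs, Rars and Tars, which charge glutamine, phenylalanine, histidine, glutamate with proline, arginine and threonine, lay between -0.16 and 0.34. Yars, the tyrosine enzyme, was dim, being detected on 2 S1Pcko and 0 WT cartilage arrays, so that its value is a bound of at least 1.22-fold higher. Probes of 1 gene did not always move together: the second Aars probe changed by 0.15 and the third by 1.56, and the third Cars probe, detected on no cartilage array, by 0.20. Vars, the valine enzyme, changed by 0.69 at its brightest probe (adjusted p = 0.102, limma). Its other tested probe, detected on 2 of 6 WT arrays, rose (log2 1.17). The other tested probe of Farsa changed by 0.79.

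**Figure D1:**
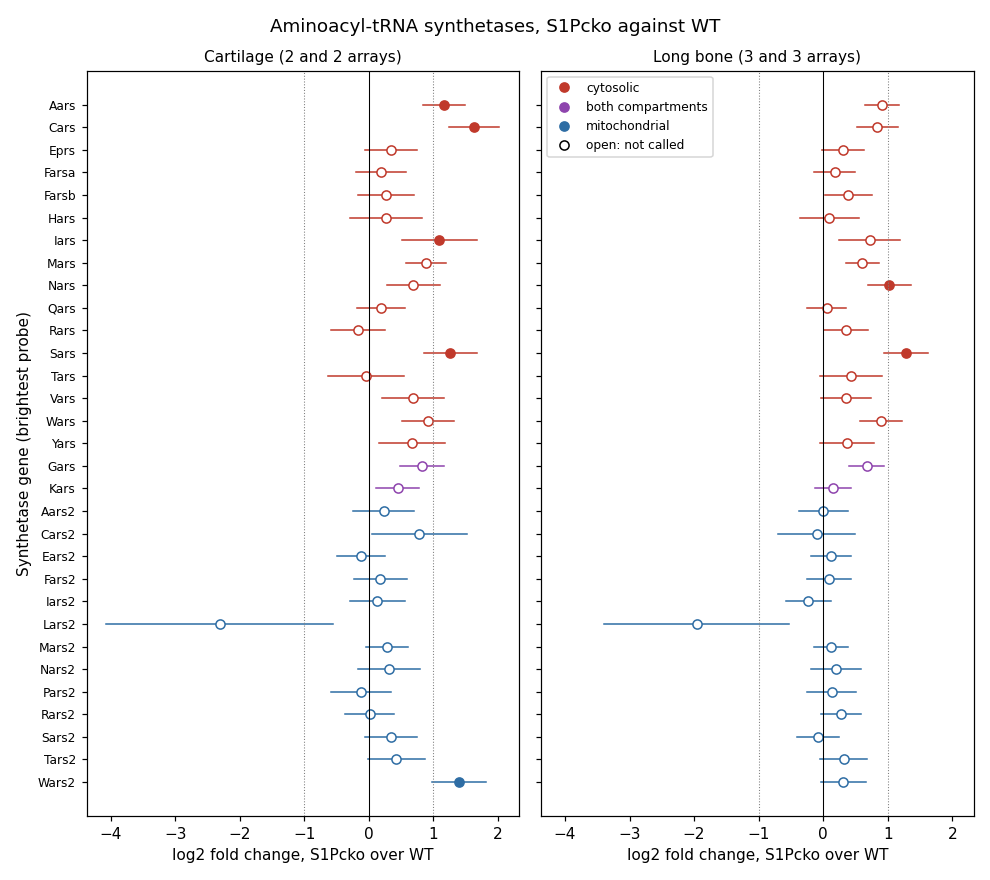
Log2 fold change of S1Pcko over WT for the 31 tested synthetases in cartilage (left) and long bone (right), by the brightest probe of each gene, with bars for the 95% confidence interval from limma. Filled points passed an adjusted p under 0.05 and 2-fold, and open points did not; 5 are filled in cartilage and 2 in long bone, all to the right of 0.

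Among the mitochondrial enzymes, only Wars2 of the 13 tested passed in cartilage. It had 9.05 and 9.07 in S1Pcko cartilage and 7.48 and 7.84 in WT cartilage, a rise of 2.63-fold (log2 1.39, standard error 0.19, adjusted p = 0.00232). WT cartilage stood below WT long bone for this probe (log2 -0.99, adjusted p = 0.00589). The other Wars2 probes changed by -0.40 and -0.09, so the rise rests on 1 of 3 tested probes.

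The mitochondrial partners of the other members called showed smaller values, none of which passed. Cars2 had 8.38 and 8.18 in S1Pcko and 7.59 and 7.40 in WT cartilage, and its groups did not overlap (log2 0.78, adjusted p = 0.213). Sars2 had 6.65 and 6.77 in S1Pcko and 6.29 and 6.45 in WT cartilage (log2 0.34, adjusted p = 0.333). Iars2, with 9.49 and 9.72 in S1Pcko and 9.37 and 9.57 in WT cartilage, overlapped between genotypes (log2 0.13, adjusted p = 0.765). Nars2, at 5.13 and 5.42 in S1Pcko and 5.18 and 4.73 in WT, and Aars2, at 5.20 and 5.02 in S1Pcko and 4.98 and 4.78 in WT, lay near the lowest detected intensity (4.96 to 5.09), where little of a change can be seen.

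Lars2, the mitochondrial leucine enzyme, had the largest change of the members in cartilage, downwards, although it did not pass the test. Its log2 intensity was 4.47 and 4.38 in S1Pcko cartilage, not detected on either array, against 6.86 and 6.61 in WT cartilage. In long bone it was 7.39 on S1Pcko array 1922 and not detected on 1924 and 1930 (4.54 and 4.49), against 6.50, 7.74 and 8.05 on the WT arrays. In calvarium it was 4.36 and not detected in S1Pcko, against 6.82 in WT. Thus all 6 WT arrays and 1 of 6 S1Pcko arrays detected it, with second amplifications counted as arrays. In cartilage it was at least 3.19-fold lower in S1Pcko, with an adjusted p of 0.129, and in long bone the adjusted p was 0.182, the fitted change (log2 -1.96) resting on 2 S1Pcko arrays below detection. Without array 1922 both passed the test, and in long bone Lars2 was then at least 5.30-fold lower. That fit leaves 1924 and 1930 as the S1Pcko long bone arrays. Array 1930 is a second amplification that may repeat 1924, so both may come from 1 sample. With array 1922 the SD of the S1Pcko long bone arrays was 1.66. The other 2 probes of Lars2 were detected on no array, so the pattern rests on 1 probe.

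**Figure D2:**
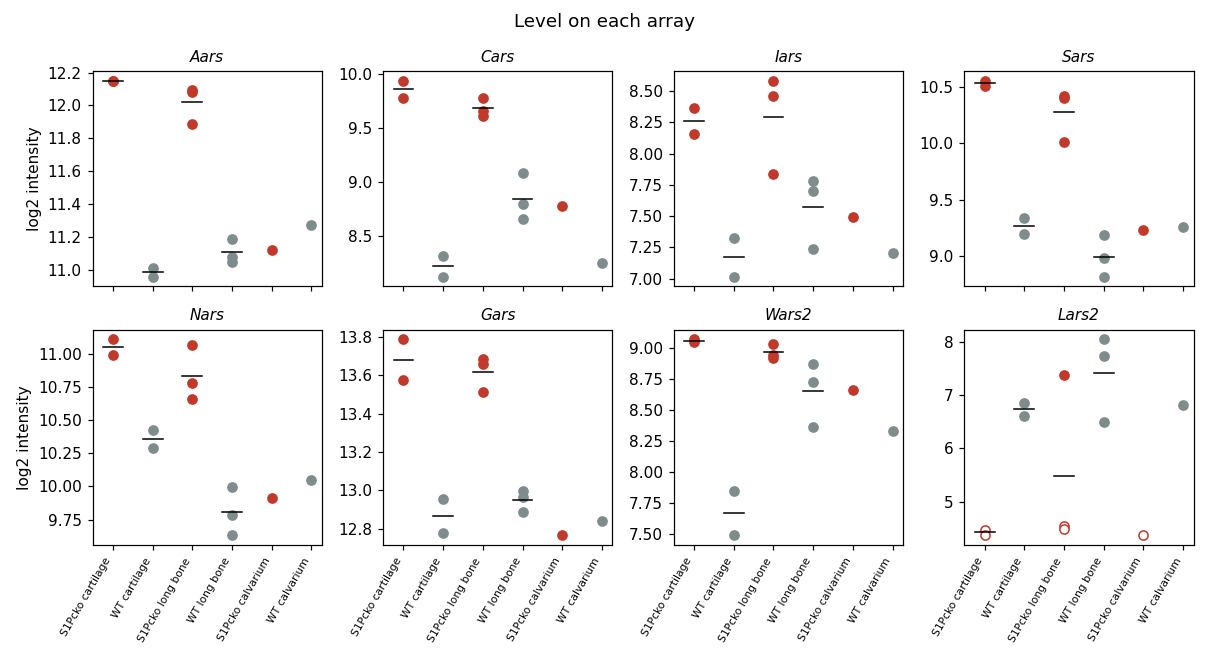
Normalized log2 intensity of 8 synthetases on each of the 12 arrays, with a separate vertical scale for each gene. Red points are S1Pcko and grey points WT arrays, open points were not detected, and bars are means of groups with more than 1 array. For Lars2, 5 of the 6 S1Pcko arrays are open, and 1 long bone array lies among the WT values.

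In long bone, 2 of 31 members rose and 0 fell, where 0.773% of all genes rose and 0.486% fell. They were Sars and Nars, of which neither kept its call in the first amplification round alone. With the amplifications averaged, Sars kept its call and Nars did not, but S1Pcko array 1930 stayed a separate sample there, since which array it repeats is not given. Without the fold threshold 7 were higher and 0 lower, against 1.38% and 1.03% of all genes, namely Aars, Cars, Gars, Mars and Wars besides these. Sars had 10.01, 10.41 and 10.40 in S1Pcko long bone, against 8.82, 8.98 and 9.18 in WT long bone, and rose 2.43-fold (log2 1.28, standard error 0.15, adjusted p = 0.00125). Nars had 10.66, 11.06 and 10.78 in S1Pcko and 9.63, 9.79 and 9.996 in WT long bone, and rose 2.04-fold (log2 1.03, standard error 0.15, adjusted p = 0.00467). Its groups did not overlap, but the call lay close to the threshold and was lost without array 1924 (log2 0.91) and without array 1921 (log2 0.94).

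Aars and Cars fell short of 2-fold in long bone. Aars had 11.88, 12.09 and 12.08 in S1Pcko and 11.05, 11.08 and 11.19 in WT long bone (log2 0.91, adjusted p = 0.00247). Cars had 9.61, 9.65 and 9.78 in S1Pcko and 8.66, 9.08 and 8.79 in WT long bone (log2 0.84, adjusted p = 0.0121). Neither gene overlapped between genotypes at its brightest probe. Over the 3 tested probes of each gene, the changes ran from -0.09 to 0.91 for Aars and from 0.23 to 0.84 for Cars. Gars had 13.52, 13.68 and 13.66 in S1Pcko and 12.89, 12.96 and 12.99 in WT long bone (log2 0.67, adjusted p = 0.0199). Wars read 9.76, 10.07 and 10.18 in S1Pcko and 8.92, 9.21 and 9.20 in WT (log2 0.89, adjusted p = 0.011), and without array 1922 it passed the fold threshold as well (log2 1.01). Iars had 7.84, 8.46 and 8.58 in S1Pcko and 7.24, 7.78 and 7.70 in WT long bone (log2 0.72, adjusted p = 0.134).

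All 16 cytosolic members had a positive change in long bone, from 0.05 for Qars to 1.28 for Sars, and 9 lay above WT without overlap. With Gars and Wars2 this was 11 of 31 members (35.5%), beside 9.19% of all genes. Of the 13 mitochondrial members 0 passed, 9 had a positive change and 1 lay above WT without overlap. Of all genes 47.9% had a positive change. Wars2 had 9.03, 8.92 and 8.94 in S1Pcko and 8.36, 8.72 and 8.87 in WT long bone (log2 0.31, adjusted p = 0.389). Sars2 (log2 -0.08), Cars2 (-0.10), Aars2 (0.003), Iars2 (-0.23) and Nars2 (0.20) all overlapped between genotypes, and so did Kars (0.15, adjusted p = 0.642).

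Markers of other cells also differed between genotypes in the long bones. Of 3 tested erythroid markers 3 fell, and their summed intensity was 10759 to 16028 in S1Pcko and 27591 to 28878 in WT long bone. Of 5 osteoclast markers 4 fell, with sums of 6964 to 14593 in S1Pcko and 21628 to 25190 in WT. The 7 muscle markers summed to 84291 on array 1922, 29069 on 1924 and 30186 on 1930, and to 75054 to 78893 in WT. The part of these cells in the values of the synthetases was not tested. Sars and Aars were above all WT arrays on 1922 as well as on 1924 and 1930. The median of the 16 cytosolic members relative to the WT mean was lower on 1922 (0.26) than on 1924 and 1930 (0.58 and 0.61).

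The median log2 fold change of the cytosolic members was 0.68 in cartilage, of Gars and Kars 0.63 and of the mitochondrial members 0.23, beside 0.01 over all genes. In long bone these medians were 0.41, 0.41, 0.12 and -0.01. The cytosolic median exceeded the mitochondrial one by 0.45 in cartilage (SD 0.04 over 2 S1Pcko arrays) and by 0.29 in long bone (SD 0.13 over 3 S1Pcko arrays). These SDs leave out the spread of the WT arrays. Without WT cartilage array 1919 the cartilage value was 0.32, and without 1927 it was 0.52. By array, the cytosolic median relative to the WT mean was 0.67 and 0.64 in S1Pcko cartilage and -0.05 and 0.05 in WT cartilage. In long bone it was 0.26, 0.58 and 0.61 on S1Pcko arrays 1922, 1924 and 1930, and -0.17, 0.07 and 0.08 on the WT arrays. The mitochondrial median was 0.26 and 0.17 in S1Pcko cartilage, and in long bone its S1Pcko values (0.03, 0.17 and 0.14) lay within the WT range (-0.21 to 0.18). Members of a class are not replicates and the classes were not tested against each other. The probes of the classes differed in brightness, which says nothing of transcript levels, with a median log2 intensity over genes of 9.28 for cytosolic and 7.39 for mitochondrial members in WT cartilage, and the part of brightness in the smaller mitochondrial changes was not tested.

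**Figure D3:**
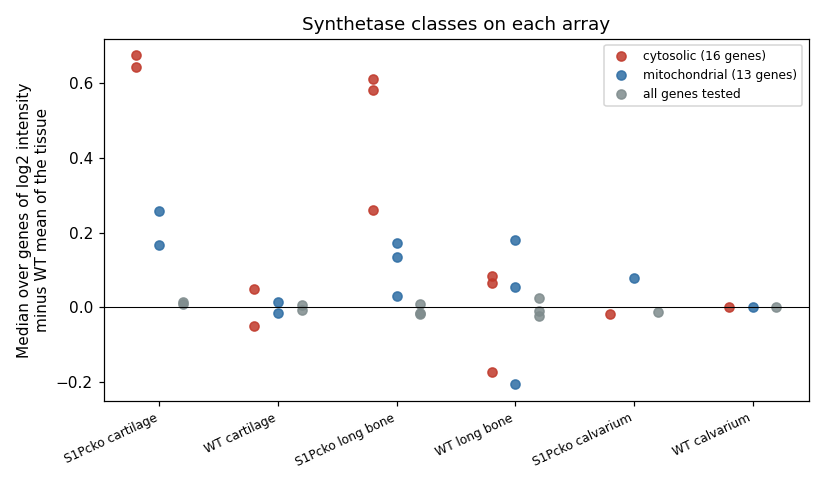
Median over the 16 cytosolic genes (red), the 13 mitochondrial genes (blue) and all genes tested (grey) of the log2 intensity minus the WT mean of the same tissue, 1 point for each array. The cytosolic points of S1Pcko cartilage and long bone lie at 0.26 and above and those of WT at 0.08 and below, while the calvarium lies near 0.

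Of 12 pairs of a cytosolic enzyme and the mitochondrial enzyme for the same amino acid (Fars2 entering with Farsa and with Farsb), the cytosolic member had the more positive change in 9 in cartilage, in 12 in long bone and in 4 in calvarium. Serine showed the widest gap in long bone, 1.28 for Sars beside -0.08 for Sars2. Isoleucine gave 1.09 for Iars and 0.13 for Iars2 in cartilage. The exceptions in cartilage were tryptophan, with 0.91 for Wars and 1.39 for Wars2, threonine, with -0.04 for Tars and 0.43 for Tars2, and arginine, with -0.16 for Rars and 0.01 for Rars2. The differences within pairs were not tested.

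**Figure D4:**
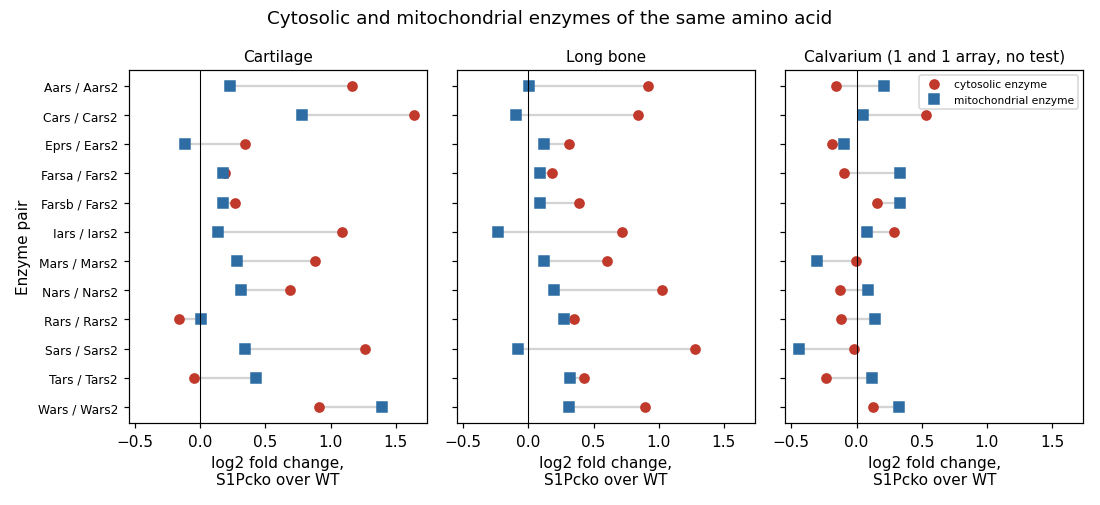
Log2 fold change of S1Pcko over WT for 12 pairs of cytosolic (red circles) and mitochondrial (blue squares) enzymes in cartilage, long bone and calvarium. The cytosolic circle lies to the right of its square in 9, 12 and 4 pairs.

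Tested directly, the change in cartilage minus that in long bone was called for 0 of 31 members by limma, beside 0.431% of all genes. An unadjusted p under 0.05 was reached by 2 members, a count for which the share of all genes was not taken. These were Wars2, with a difference of 1.08 (standard error 0.25, adjusted p = 0.1), and Cars, with 0.80 (standard error 0.23, adjusted p = 0.164). Between the WT tissues 0 members were called, beside 4.83% of all genes. On p alone Ears2, the mitochondrial glutamate enzyme, was higher (log2 0.57, adjusted p = 0.0417) and Cars (log2 -0.62, adjusted p = 0.033) and Wars2 were lower in WT cartilage than in WT long bone, which is 1 higher and 2 lower of 31 members, beside 5.26% higher and 6.08% lower of all genes. The median of the members there was -0.08.

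In calvarium, with 1 array per genotype and no test, 0 of 31 members were 2-fold higher in S1Pcko, where 1.14% of all genes were, and 1, Lars2, was 2-fold lower, where 0.247% of all genes were. The median difference was -0.02, with 14 members higher and 17 lower. Aars read 11.12 in S1Pcko and 11.27 in WT calvarium, Sars 9.23 and 9.25, Nars 9.92 and 10.05, Gars 12.76 and 12.84. Cars, with 8.78 in S1Pcko and 8.25 in WT, had the most positive difference (0.53), and Wars2 had 8.66 in S1Pcko and 8.33 in WT. These S1Pcko values of Aars, Sars, Nars and Gars lay below all S1Pcko values of cartilage and long bone.

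Other genes of tRNA charging were read from lists of their own. The scaffold of the multisynthetase complex (Aimp1, Aimp2 and Eef1e1) had 0 of 3 called in either tissue, with medians of 0.02 in cartilage and 0.32 in long bone. The 6 cytosolic elongation factors had 0 called, with medians of 0.20 and 0.19, and the 11 mitochondrial translation factors 0 called, with medians of -0.01 and 0.09. Of 4 tested proofreading and release genes 1 fell in cartilage, Prorsd1, a relative of bacterial proteins that clear mischarged tRNA (log2 -1.39, adjusted p = 0.00138). Of 2 tested synthetases outside the members, Vars2 and Tarsl2, and of the 3 subunits of the mitochondrial glutamyl-tRNA amidotransferase, 0 were called. Of 11 tested genes of tRNA sensing and the stress response 7 rose in both tissues, namely Asns, Atf3, Atf4, Chac1, Ddit3, Ppp1r15a and Trib3. The change of Atf4 was larger in cartilage than in long bone, and this difference was called (log2 2.38). Its probe read 6.10 and 5.72 in WT cartilage, against 9.57, 9.04 and 9.30 in WT long bone, and this difference was called too. The probes of Trib3, a pseudokinase induced by ATF4, and Atf3 were detected on no WT array of either tissue, so their changes are bounds, at least 14.7-fold higher in S1Pcko cartilage and 9.62-fold in long bone for Trib3, and at least 2.78-fold and 2.62-fold for Atf3. Chac1, which degrades glutathione, was detected in both genotypes and rose 8.58-fold in cartilage and 14.0-fold in long bone. Eif2ak4, the kinase that senses uncharged tRNA, had no tested probe, and its partner Gcn1 did not pass (0.37 and -0.18).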

How the data were processed

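Expression was measured with Illumina MouseWG-6 v1.1 BeadChips on 12 arrays. The authors deposited an intensity for each of 46643 probes, not normalized, with a detection p-value against the negative controls of its array, per the file headers. The authors also deposited processed intensity values, which on inspection are background-subtracted and quantile normalized on a linear scale. The scanner and software are not given in the sources used here. Probes were named through the platform annotation and RefSeq symbols: 32794 have 1 gene, 55 have several and 13794 have none listed.

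Signals were corrected and quantile normalized over 12 arrays with neqc (limma 3.58.1, R 4.3.3, offset 16) and put on the log2 scale. Probes with a detection p under 0.05 on 2 or more of the 10 arrays of cartilage and long bone (23744) were fitted in 4 groups with limma (6 residual degrees of freedom, prior 5.13), with Benjamini-Hochberg adjustment over all tested probes. Each gene was represented by its brightest tested probe. Fold bounds use, on each array, the higher of the lowest detected intensity and the probe's own value. The number of arrays limits the precision. The fit was tested on simulated data. A promoter was left out of the sequence search and is not reported here.

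The members and lists were chosen with earlier results of these data known. Values by array were given for members called by their brightest probe, their mitochondrial counterparts, Gars, Kars and the mitochondrial member with the largest change in cartilage; other members are given by range and count, and further values of single members were chosen after they were seen. Alternatives covered background correction, scaling, the filter, the model, values processed by the authors, probe summary, a replicate block, amplification round and leaving out each array. Same-numbered cartilage arrays deviated together (r = 0.466 with 2 arrays per genotype, which fixes the size of the value for both pairs), and those of long bone gave r of -0.0975 to 0.13, so the numbers were not taken to pair embryos.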

Additional observations from a re-analysis of the deposited data

Results flagged for a closer look

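Aars and Sars rose in cartilage on both S1Pcko arrays, but stood slightly lower in S1Pcko than in WT calvarium, by -0.155 and -0.0219 on the log2 scale at their brightest probes. Other detected probes of both genes differed in direction there: the second Sars probe was 0.61 and the third Aars probe 0.30 higher in S1Pcko calvarium, and the second Aars probe had -0.36. The difference between the tissues was not tested, since the calvarium has 1 array per genotype, and for Sars the value is close to 0.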

How the results depend on the processing

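The members called to rise numbered 5 in cartilage and 2 in long bone. In cartilage the number was 0 in the first amplification round alone and 0 with amplifications of 1 extract averaged. These settings leave 2 and 3 residual degrees of freedom. The number was 8 without the fold threshold and 6 counting any probe of a gene. It was 4 to 5 when 1 array was left out. In long bone it was 1 without background correction, 0 in the first round alone, 1 with amplifications averaged (S1Pcko array 1930 kept as a sample of its own), 7 without the fold threshold, and 1 to 3 when 1 array was left out. With the replicate number as a block (replicate block) the numbers were 5 and 2, and the block changed no call between genotypes. Members that fell numbered 0 in both tissues. Leaving out 1 array changed this only without array 1922, where Lars2 was called. The S1Pcko long bone arrays left there, 1924 and 1930, may come from 1 sample. The difference between the tissues gave 0 to 1 rises when 1 array was left out (1 without array 1921). Between WT tissues, 0 were higher, against 1 without the fold threshold and 1 counting any probe. There 0 were lower, against 1 with the authors' values, 1 with the replicate block, 2 without the fold threshold, and 0 to 1 when 1 array was left out. The causes of these changes were not tested.

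Iars lost its call in cartilage under 12 of 21 settings and Nars in long bone under 5 of 20. The cytosolic median minus the mitochondrial median, a comparison chosen after seeing the data, stayed positive under all settings run. In cartilage it was 0.45, against 0.32 without background correction, 0.39 with median scaling, 0.55 in the first round alone, and 0.32 to 0.52 when 1 array was left out. In long bone it was 0.29, and 0.28 to 0.42 when 1 array was left out. The median difference of the members in calvarium was -0.016, -0.016 without background correction, -0.016 with the authors' values and 0.15 with median scaling.

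Single members near 0 turned sign, with none called. In cartilage, leaving out 1 array gave -0.116 to 0.654 for Hars, -0.373 to 0.286 for Tars, -0.289 to 0.0502 for Ears2, -0.23 to 0.00073 for Pars2 and -0.0399 to 0.0606 for Rars2. The first round alone gave -0.183 for Hars, 0.0183 for Tars, -0.0554 for Nars2 and -0.0096 for Rars2, median scaling gave -0.0018 for Rars2, and the mean of all probes gave 0.0053 for Tars. In long bone, leaving out 1 array gave -0.0394 to 0.21 for Hars, -0.0328 to 0.121 for Qars, -0.202 to 0.126 for Aars2, -0.392 to 0.143 for Cars2, -0.00053 to 0.197 for Fars2 and -0.172 to 0.0628 for Sars2. The first round alone gave -0.0021 for Hars, -0.227 for Aars2, -0.0254 for Fars2 and 0.0089 for Sars2. Aars2 had -0.205 with the authors' values and -0.059 with amplifications averaged, and the mean of all probes gave 0.0781 for Cars2 and -0.0221 for Nars2. Changes in probes near the lowest detected intensity, such as Aars2, Nars2 and Yars, are limited by brightness.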
